A study of Mus musculus with 50 samples.

Results

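The genes described here are 9 members of the adenosine and cyclic AMP pathway, chosen by name as rows of the count table: Entpd1, Nt5e, Adora2a, Crem, Pde3b, Pde4b, Pde4d, Ptger4 and Gpr83. All 9 were found among the 55011 gene symbols. They were followed over 16 groups of 50 RNA-seq libraries of sorted mouse CD4 T cells, 500 to 1000 double-sorted cells each, 3 libraries per group and 4 in each group of visceral adipose tissue (VAT). The 6 thymus groups hold progenitors of regulatory T cells (Treg) from B6.Cg-Foxp3tm1Kuch/J mice at days 5, 12 and 49. Both were sorted as CD4+CD8-, P1 as CD25+ and Foxp3-, and P2 as CD25- and Foxp3+. The 10 peripheral groups hold Foxp3-GFP+ Treg of spleen, lung, liver, ear skin and VAT from 20-week-old mice of the B6.129(Cg) strain with the allele Foxp3tm3(HBEGF/GFP)Ayr, with tissue-specific digestion. Every library of both sets is labelled male and genotype WT. Both peripheral arms carry the same strain label. The titles call the arms PBS and DT, whereas the series text describes diphtheria toxin (DT) given for 3 days at 12 weeks to littermates with and without the DT receptor, then 8 to 9 weeks of rest. The arms are therefore called PBS-labelled and DT-labelled, and the labels do not tell which mice lost their Treg. In the receptor strain the Foxp3 locus drives both the receptor and GFP. Whether the libraries of a group are separate mice is not given in the labels. The p-values therefore measure the spread between libraries, which may be technical.

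Treg carry a pair of enzymes on their surface that turn extracellular ATP into adenosine. CD39, encoded by Entpd1, removes phosphates from ATP and ADP to give AMP, and CD73, encoded by Nt5e, turns AMP into adenosine. Adenosine binds the receptor encoded by Adora2a, and prostaglandin E2 binds EP4 (Ptger4). Both receptors couple to the stimulatory G protein and raise cyclic AMP, which activates protein kinase A and, through it, CREB family factors. Crem encodes a member of that family whose short form, ICER, is itself induced by cyclic AMP and represses its targets. Phosphodiesterases 3B, 4B and 4D (Pde3b, Pde4b, Pde4d) break cyclic AMP down. Gpr83 is a G protein-coupled receptor known as a marker of Treg.

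Levels are given as CPM, the counts of a gene scaled to library size with TMM factors over all 50 libraries, and totals ran from 2521078 to 6981037 counts per library. Foxp3 followed the gates: its group means were 8.55 to 13.1 CPM in P1 and 272 to 739 CPM in P2, and 142 to 497 CPM in single peripheral libraries. Il2ra, which encodes CD25, had group means of 112 to 142 CPM in P1 and 14.4 to 37.2 CPM in P2. A few libraries stood apart. PBS-labelled spleen replicate 1 had the lowest peripheral Foxp3 (142 CPM, against 300 and 342 CPM in the other spleen libraries of its arm) and the highest Gpr83 of all libraries. The 6 fibroblast markers summed to as much as 567.5 CPM in DT-labelled VAT, against 8.50 CPM or less in PBS-labelled VAT, and Col1a1 reached 91.0 CPM in DT-labelled VAT replicate 7. The 8 macrophage and monocyte markers summed to 19.6 to 91.8 CPM in day 49 P2, against 4.97 to 10.7 CPM in day 5 P2. Their sum was 102 CPM in DT-labelled VAT replicate 7, against 14.6 CPM or less in the rest of its group. In PBS-labelled lung replicate 1 it was 67.4 CPM, against 15.7 and 6.8 CPM in replicates 2 and 3. Lyz2 read 44.1 and 51.8 CPM in those VAT and lung libraries. The part of these transcripts in the lung and VAT results was not tested. Fewer cells of a type and less RNA per cell cannot be told apart in such bulk libraries.

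Over the 16 groups the members followed several different patterns. The genes of the ectoenzymes and of the adenosine receptor were low in the thymus and high in the periphery. Entpd1 had group means of 1.44 to 14.9 CPM in the 6 thymus groups and 65.0 to 198 CPM in the 10 peripheral groups, and no library of one set reached the other. Adora2a likewise had means of 7.33 to 19.8 CPM in the thymus and 58.2 to 250 CPM in the periphery, without overlap between libraries. Nt5e means ran from 10.5 to 69.3 CPM and from 102 to 506 CPM, and here single libraries overlapped, since the highest thymus library had 83.5 CPM and the lowest peripheral library, of PBS-labelled VAT, 62.3 CPM. Pde3b ran the other way, with 22.3 to 56.3 CPM in the thymus and 0.980 to 6.52 CPM in the periphery. For Ptger4 the ranges of the sets lay over each other, with means of 61.9 to 148 CPM and 75.3 to 141 CPM. Thymus and periphery differ in strain, age and sort as well as in tissue, so these values are a description and were not tested.

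The order of the groups differed from gene to gene. Crem was highest in DT-labelled liver (1422 ± 419 CPM, SD, n = 3), and the libraries of the 4 lung and liver groups overlapped each other and lay above all others. The 4 groups of ear skin and VAT came next, at 234 to 302 CPM, and all 8 spleen and thymus groups had means of 22.4 to 44.9 CPM. Gpr83 was highest in spleen, at 312 ± 59.2 CPM in the DT-labelled and 302 ± 106 CPM in the PBS-labelled arm, which did not differ beyond their spread, followed by day 12 P2 at 208 ± 8.47 CPM. It was lowest in PBS-labelled ear skin, at 2.57 ± 2.81 CPM, where 1 library had no count. Pde4d was lowest in the spleen, at 10.1 ± 1.13 and 9.29 ± 2.56 CPM in the PBS- and DT-labelled arms, and highest in PBS-labelled lung, at 86.5 ± 2.79 CPM. Pde4b was highest in PBS-labelled lung (318 ± 46.3 CPM) and lowest in day 12 P1 (46.8 ± 3.68 CPM), where neighbouring groups overlapped.

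**Figure D1:**
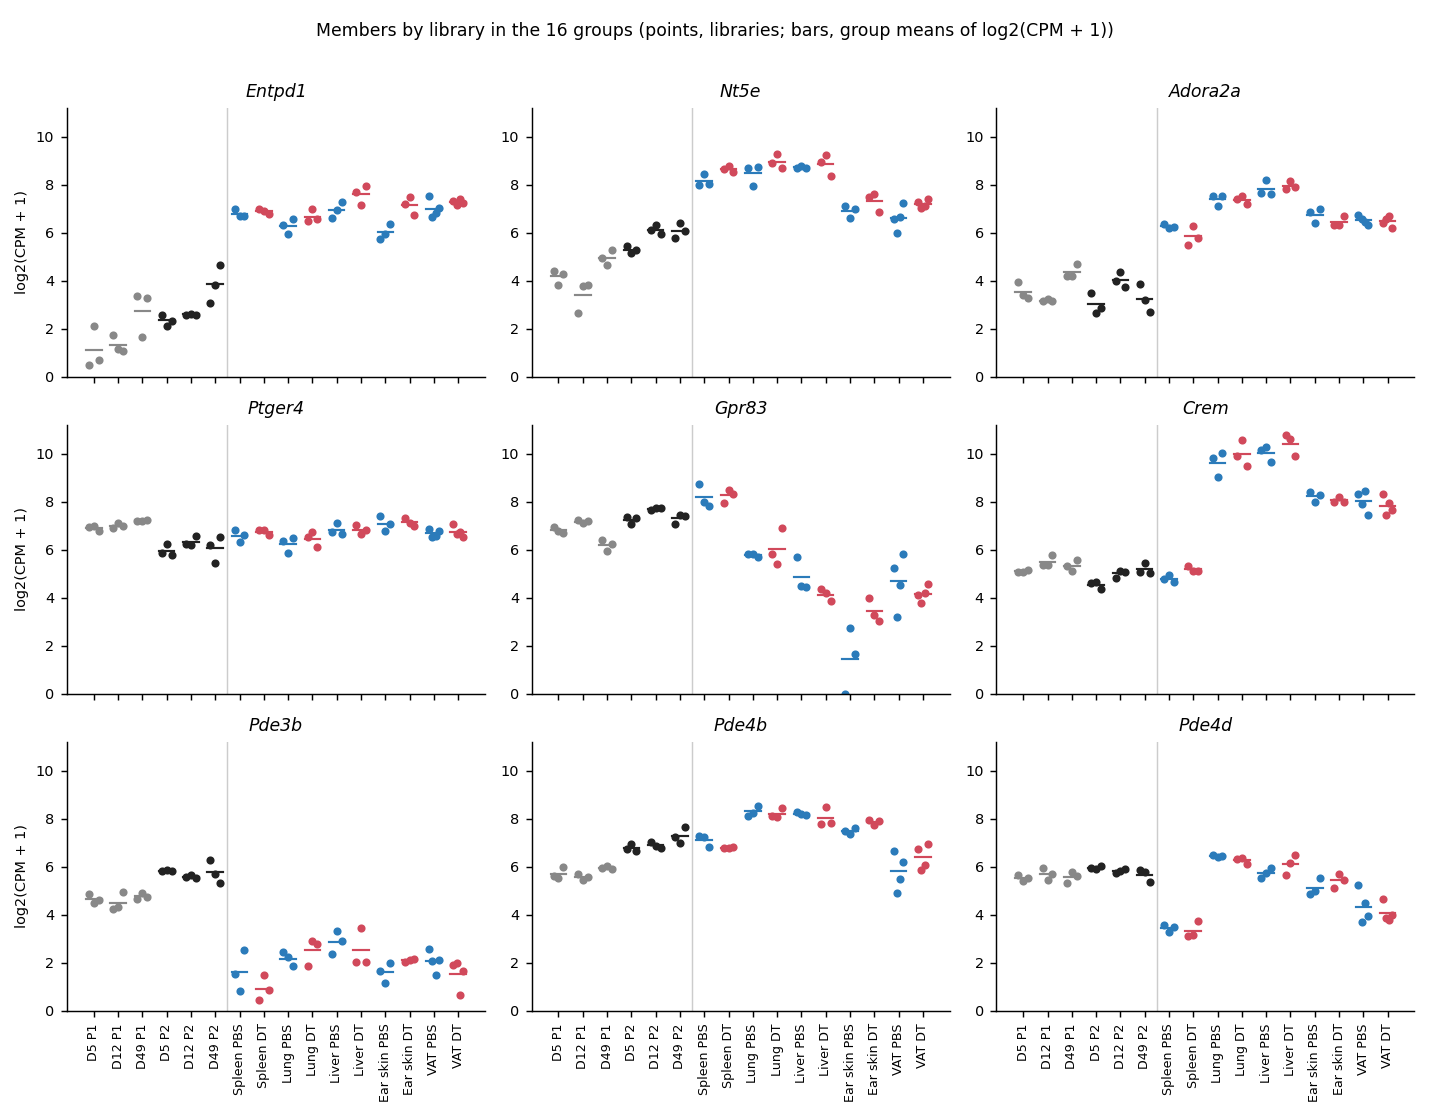
Level of each of the 9 members as log2(CPM + 1) in every library, in the 6 thymus and 10 peripheral groups (grey, P1; black, P2; blue, PBS-labelled; red, DT-labelled; bars are group means on that scale). Entpd1, Nt5e and Adora2a sit lower and Pde3b higher to the left of the vertical line, and Crem is highest in lung and liver.

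In the mm10 annotation the genes of the ectoenzymes lie at chr19:40612366-40741602 (Entpd1) and chr9:88327197-88372092 (Nt5e), and those of the receptors at chr10:75316877-75334784 (Adora2a), chr15:5206661-5244187 (Ptger4) and chr9:14860210-14870789 (Gpr83). The phosphodiesterase genes lie at chr7:114415281-114539251 (Pde3b), chr4:102087543-102607259 (Pde4b) and chr13:108449948-109953461 (Pde4d). The counts cover whole genes and do not tell isoforms apart. Small pseudogenes or noncoding transcripts lie within Entpd1 and Pde4d.

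Promoter windows from RefSeq on GRCm38.p6, 250 bases before to 50 after a gene's start, were searched because several members answer to or act on cyclic AMP. The table held 10 windows of 6 members, with none matched for Adora2a, Pde3b and Crem. The full cyclic AMP response element TGACGTCA, a palindrome, was in 1.79% of all 32851 windows and in none of the 10. The shorter motif TGACG, read on both strands as TGACG or CGTCA and contained in the full element, was in 20.8% of all windows and in 4 of the 10. Those 4 windows are shown, 5′ to 3′ on the plus strand, with the motif in capitals. They are Pde4b at chr4:102421305-102421604, Gpr83 at chr9:14859960-14860259, and the pair of Entpd1 starts at chr19:40612116-40612415 and chr19:40659520-40659819.
Pde4b: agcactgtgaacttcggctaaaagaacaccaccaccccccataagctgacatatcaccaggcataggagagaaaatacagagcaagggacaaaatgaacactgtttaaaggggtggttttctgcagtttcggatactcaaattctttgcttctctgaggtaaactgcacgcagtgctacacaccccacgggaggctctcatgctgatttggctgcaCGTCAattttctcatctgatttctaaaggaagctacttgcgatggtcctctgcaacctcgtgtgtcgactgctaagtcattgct
Gpr83: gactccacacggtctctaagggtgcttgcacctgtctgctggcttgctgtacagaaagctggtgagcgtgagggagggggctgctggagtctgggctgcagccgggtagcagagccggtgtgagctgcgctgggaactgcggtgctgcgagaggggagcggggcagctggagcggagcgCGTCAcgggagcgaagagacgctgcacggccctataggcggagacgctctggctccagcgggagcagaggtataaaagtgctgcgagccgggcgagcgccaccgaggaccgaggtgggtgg
Entpd1, upstream start: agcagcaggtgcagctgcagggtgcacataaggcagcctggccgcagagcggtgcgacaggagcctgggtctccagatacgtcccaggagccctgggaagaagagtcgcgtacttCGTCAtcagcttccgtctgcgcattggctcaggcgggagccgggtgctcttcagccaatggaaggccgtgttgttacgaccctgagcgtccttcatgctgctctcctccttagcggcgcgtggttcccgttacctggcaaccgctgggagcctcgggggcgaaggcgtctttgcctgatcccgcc
Entpd1, downstream start: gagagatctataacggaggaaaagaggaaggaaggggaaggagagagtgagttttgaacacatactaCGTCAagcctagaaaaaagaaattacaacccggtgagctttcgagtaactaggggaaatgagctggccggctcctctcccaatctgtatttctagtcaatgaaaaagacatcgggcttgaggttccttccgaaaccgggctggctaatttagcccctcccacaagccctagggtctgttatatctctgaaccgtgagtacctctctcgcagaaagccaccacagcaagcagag
The motif begins 34 bases before the Pde4b start, 71 before the Gpr83 start, and 135 and 183 before the Entpd1 starts. A match describes the letters of a window and shows no binding. Of the genes with the motif, Gpr83 fell and Pde4b rose in lung and liver against spleen, and Entpd1 passed the test there in DT-labelled liver alone. Pde4b also had windows without the motif. A link between the motif and these levels was not tested.

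The sort of the thymus separates the P1 and P2 progenitors of Treg, and their comparison at each age asks how the pathway differs between them. Of the 9 members, 5 passed the edgeR test at day 5 (15.2% of 14696 genes tested did), 8 at day 12 (41.4%) and 6 at day 49 (29.5%). The median log2 fold change of the members was 0.48, 0.98 and 1.11 at the 3 ages, beside -0.0027, -0.08 and 0.10 over all genes. Nt5e, Pde3b, Pde4b and Gpr83 were higher in P2 and Ptger4 lower in P2 at each age. Cd8a read 8.7 to 16.5, 14.8 to 19.4 and 11.5 to 22.8 CPM in P1 at the 3 ages. In P2 it read 1.11 to 2.1, 2.25 to 5.88 and 0 to 1.66 CPM. Cd8b1 overlapped at day 5, with 33.0 to 44.3 CPM in P1 and 30.9 to 42.8 CPM in P2. Of 6 macrophage and monocyte markers tested, 1, Csf1r, was higher in P2 at day 49. The part of such transcripts in these results was not tested.

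Nt5e at day 12 had the widest gap of the members. Its libraries read 5.25, 12.8 and 13.3 CPM in P1 and 67.3, 79.6 and 61.0 CPM in P2, so every P2 library lay above every P1 library. The log2 fold change was 2.77 ± 0.29 (SE, edgeR adjusted p = 3.72e-07). At day 5 the values were 20.2, 13.3 and 18.5 CPM against 42.3, 34.8 and 37.8 CPM (1.17 ± 0.27, adjusted p = 0.00407), and at day 49 they were 30.0, 24.3 and 37.9 CPM against 53.6, 83.5 and 65.8 CPM (1.17 ± 0.26, adjusted p = 0.00262). With replicate 1 as the only day 49 P2 library, which is then assumed to vary like the other groups, the day 49 difference was 0.79 (adjusted p = 0.113). Entpd1 passed the test at day 12 alone, where P1 libraries had 2.35, 1.24 and 1.12 CPM and P2 libraries 5.01, 5.12 and 4.98 CPM (1.68 ± 0.67, adjusted p = 0.0490). These levels rest on few counts, and the call was lost on leaving out any of the 6 libraries (adjusted p = 0.0519 to 0.128), with RLE scaling (0.0565) and with DESeq2 (0.0688).

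Adora2a changed direction between ages. At day 12 it was higher in P2, with 14.8, 19.4 and 12.2 CPM against 7.78, 8.40 and 7.87 CPM in P1 (log2 fold change 0.98 ± 0.34, edgeR adjusted p = 0.0266). At day 49 it was lower in P2, with 13.5, 8.03 and 5.5 CPM against 17.2, 17.2 and 25.1 CPM (-1.12 ± 0.34, adjusted p = 0.0187). The libraries did not overlap at either age, and the difference between the ages was not tested. The day 12 call was lost without P1 replicate 1 (0.94, adjusted p = 0.0723), P1 replicate 3 (0.97, 0.0654) or P2 replicate 2 (0.78, 0.121). The day 49 call was lost without P1 replicate 3 (-0.95, 0.0809), P2 replicate 2 (-1.07, 0.0521) or P2 replicate 3 (-0.87, 0.0723), with P2 replicate 1 as the only library of its group (-0.56, 0.476) and in a fit of the compared libraries alone (-1.08, 0.117). The other cyclic AMP-raising receptor, Ptger4, was lower in P2 throughout. Its P1 libraries had 109.9 to 125 CPM at day 5 and 145 to 151 CPM at day 49, and its P2 libraries 53.3 to 74.9 and 42.4 to 92.5 CPM, so that the groups stood apart. Its log2 fold changes were -0.92 ± 0.20 at day 5, -0.65 ± 0.20 at day 12 and -1.06 ± 0.20 at day 49 (adjusted p = 0.00289, 0.0138 and 0.000624). At day 12 it missed the threshold without P1 replicate 2, P2 replicate 1 or P2 replicate 2 (-0.55 to -0.58, adjusted p = 0.0622 to 0.0655). Ptger4 overlaps Ttc33 on the opposite strand, and the strand setting of the counting is not given in the sources used here, so part of its counts may belong to Ttc33.

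Pde3b and Pde4b, which encode enzymes that remove cyclic AMP, were higher in P2. Pde3b read 28.4, 21.2 and 23.5 CPM in day 5 P1 and 56.4, 56.6 and 56.0 CPM in day 5 P2, without overlap (log2 fold change 1.24 ± 0.22, edgeR adjusted p = 0.000485). Its differences at day 12 and day 49 were 1.11 ± 0.23 and 1.11 ± 0.22. Pde4b read 48.4, 45.0 and 63.3 CPM in day 5 P1 and 107, 124 and 101 CPM in day 5 P2 (1.11 ± 0.16, adjusted p = 6.36e-05), and its differences at the later ages were 1.38 ± 0.17 and 1.40 ± 0.16. Pde4d did not pass the test at any age (0.46 ± 0.16, 0.16 ± 0.16 and 0.14 ± 0.17, adjusted p = 0.0663, 0.455 and 0.558), although DESeq2 (0.47, adjusted p = 0.0211) and a fit of the compared libraries alone (0.50, 0.00584) called it at day 5. Gpr83 was higher in P2 by 0.48 ± 0.13 at day 5, 0.57 ± 0.13 at day 12 and 1.17 ± 0.14 at day 49. At day 49 its P1 libraries had 83.7, 60.2 and 73.7 CPM and its P2 libraries 133, 176 and 168 CPM. The day 5 call was lost without P1 replicate 2 or 3 or P2 replicate 1 or 3 (0.44 to 0.47, adjusted p = 0.0675 to 0.0863). Crem was lower in P2 at day 12, with 27.7, 33.6 and 33.1 CPM against 40.2, 40.8 and 53.7 CPM (-0.48 ± 0.18, adjusted p = 0.0416). The day 12 call was lost without P1 replicate 2 or 3 or any P2 library (-0.33 to -0.53, adjusted p = 0.0717 to 0.224) and without a filter on low counts (-0.41, 0.275). At day 5 Crem read 23.6, 24.3 and 19.3 CPM in P2 and 32.7, 32.4 and 34.7 CPM in P1, without overlap (-0.54 ± 0.19, adjusted p = 0.0539), and DESeq2 (-0.53, 0.0415) and a fit of the compared libraries alone (-0.50, 0.0285) called it. At day 49 the difference was -0.12 ± 0.19 (adjusted p = 0.682). The day 12 P1 libraries had 27911 to 31478 detected genes, and day 49 P2 replicates 2 and 3 had 27729 and 28765. The other thymus libraries had 21664 or fewer, and the part of these differences in the results was not tested.

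**Figure D2:**
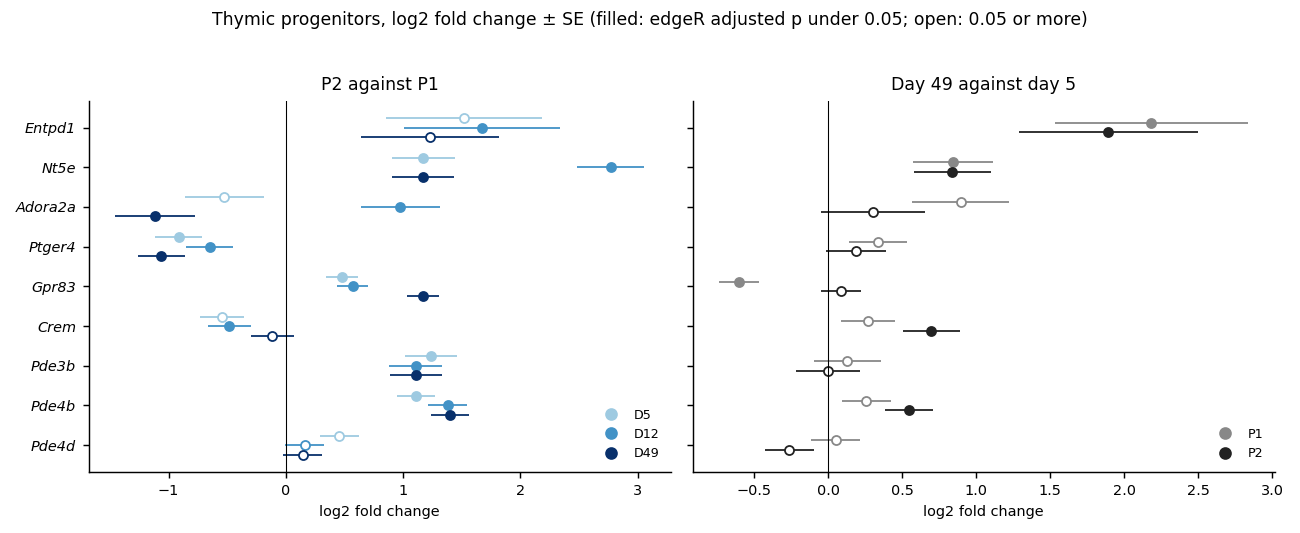
Log2 fold change ± SE of each member in the thymus, P2 against P1 at days 5, 12 and 49 (left) and day 49 against day 5 within P1 and P2 (right); filled points have an edgeR adjusted p under 0.05. Pde3b and Pde4b lie near 1 on the left at every age, and Entpd1 lies near 2 on the right in both progenitors.

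Age was compared within each progenitor. Between day 5 and day 12 no member passed the edgeR test in P1 (18.3% of all genes did) or in P2 (5.16%). At an unadjusted p under 0.05 there were 3 members in P1 and 4 in P2. Of all 14696 genes tested, 4704 in P1 and 2408 in P2 were under it. DESeq2 called Gpr83 in P1 (0.40, adjusted p = 0.0387) and Adora2a, Gpr83 and Nt5e in P2 (1.04, 0.42 and 0.82, adjusted p = 0.0499, 0.0346 and 0.0432). A fit of the compared libraries alone called the same genes, Gpr83 in P1 and those 3 in P2. Without a filter on low counts Nt5e was called as lower at day 12 in P1 (-0.80, edgeR adjusted p = 0.0289). It was called as higher there in P2 (0.82, edgeR adjusted p = 0.0230). Between day 5 and day 49, 3 members passed in P1 (10.6% of all genes) and 4 in P2 (25.8%).

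Both ectoenzyme genes were higher at day 49 than at day 5 in both progenitors. The rise was not steady in P1. There the day 5 and day 12 means were 17.3 and 10.5 CPM for Nt5e, and 1.44 and 1.57 CPM for Entpd1. Entpd1 read 0.378, 3.33 and 0.625 CPM in day 5 P1 and 9.13, 2.13 and 8.57 CPM in day 49 P1, so 1 library of each age overlapped (log2 fold change 2.18 ± 0.65, edgeR adjusted p = 0.0352). In P2 it read 4.97, 3.34 and 4.01 CPM at day 5 and 7.45, 13.2 and 24.2 CPM at day 49, without overlap (1.89 ± 0.61, adjusted p = 0.0280). Nt5e rose by 0.84 ± 0.27 in P1 (adjusted p = 0.0493) and by 0.84 ± 0.26 in P2 (adjusted p = 0.0233). None of these calls held in every setting. Entpd1 in P1 was lost without day 5 replicates 1 or 3 or day 49 replicates 1 or 3 (1.77 to 1.98, adjusted p = 0.121 to 0.156) and in the compared libraries alone (2.21, 0.0508). Entpd1 in P2 was lost without any day 5 library (1.75 to 2.03, adjusted p = 0.0672 to 0.0964) or day 49 replicate 3 (1.32, 0.139), and Nt5e in P1 without any library but day 49 replicate 2 (0.69 to 0.98, adjusted p = 0.0653 to 0.209). Nt5e in P2 was lost without any day 5 library or day 49 replicate 2 (0.65 to 0.90, adjusted p = 0.0535 to 0.0986). Without a filter on low counts it was lost too (0.59, edgeR adjusted p = 0.0795).

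The other calls with age were found in 1 progenitor each. In P1 between day 5 and day 49, Adora2a and Ptger4 gave 0.89 ± 0.33 and 0.33 ± 0.20 (edgeR adjusted p = 0.0906 and 0.334). A fit of the compared libraries alone called both (0.93 and 0.36, edgeR adjusted p = 0.0251 and 0.0195). Gpr83 fell in P1, from 121, 108 and 104 CPM at day 5 to 83.7, 60.2 and 73.7 CPM at day 49 (log2 fold change -0.60 ± 0.14, edgeR adjusted p = 0.00511), and it just missed the threshold without day 49 replicate 2 (-0.49, adjusted p = 0.0502). In P2 it read 162, 134 and 159 CPM and 133, 176 and 168 CPM (0.09 ± 0.13, adjusted p = 0.688). The difference between these age effects was 0.69 ± 0.19 (adjusted p = 0.121), and DESeq2 called it (0.70, adjusted p = 0.0361). For the 9 members that test of P2 minus P1 gave no edgeR call (0.374% of all genes), with 1 member, Gpr83, at an unadjusted p under 0.05. Of all 14696 genes tested, 2098 were under that unadjusted p. Crem rose in P2, from 23.6, 24.3 and 19.3 CPM to 33.1, 42.4 and 32.1 CPM (0.70 ± 0.19, adjusted p = 0.0123), and Pde4b rose there from 107, 124 and 101 CPM to 149, 127 and 201 CPM (0.55 ± 0.16, adjusted p = 0.0185). Crem missed the threshold without day 49 replicate 2 (0.55, 0.0626) or day 5 replicate 3 (0.59, 0.0734). Pde4b missed it without day 49 replicate 3 (0.32, 0.125) or day 5 replicates 1 or 3 (0.51 and 0.48, 0.0774 and 0.0857). Both calls were also lost without a filter on low counts (0.46 and 0.30, edgeR adjusted p = 0.253 and 0.303). In the compared libraries alone Crem gave 0.73 and Pde4b 0.58 (edgeR adjusted p = 0.0883 and 0.110). Lyz2, a macrophage and monocyte transcript, read 2.48, 33.1 and 34.1 CPM in day 49 P2 and 0 CPM in every day 5 P2 library. Of the 8 markers of those cells 6 were tested, and Adgre1, C1qa, Csf1r and Lyz2 were higher in day 49 than in day 5 P2. All 8 summed to 19.6, 78.0 and 91.8 CPM in day 49 P2, so replicate 1 was lowest but also above every day 5 P2 library, and the part of these transcripts in the P2 results was not tested. With replicate 1 as the only day 49 P2 library, none of the 4 members called in P2 kept its call (Entpd1 0.84, Nt5e 0.47, Crem 0.55, Pde4b 0.41, adjusted p = 0.168 to 0.606). That group then holds 1 library, assumed to vary like the other groups, so the missed threshold does not bear on the part of the macrophage transcripts.

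In the periphery, Treg of each tissue were compared with spleen Treg of the same arm. Crem rose and Gpr83 fell in all 4 tissues of both arms, and these calls held in every setting tried. In the PBS-labelled arm 5 members passed the edgeR test in lung (15.9% of all 17731 genes tested did), 5 in liver (17.0%), 7 in ear skin (23.7%) and 5 in VAT (14.9%). In the DT-labelled arm, which has its own spleen libraries, 6 passed in lung (14.6%), 7 in liver (13.3%), 6 in ear skin (22.1%) and 4 in VAT (8.85%). Comparisons within an arm share its spleen libraries. The median log2 fold change of the 9 members lay between 0.36 and 1.40, beside -0.06 to 0.14 over all genes. RLE scaling moved the median over all genes by 0.15 in DT-labelled ear skin against spleen and by -0.12 in PBS-labelled VAT against ear skin, and by 0.0896 or less in size elsewhere.

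Crem, the CREB family factor, moved most among the members that rose. In PBS-labelled spleen it read 26.6, 29.6 and 24.2 CPM, in lung 900, 519 and 1042 CPM, in liver 1160.5, 1236 and 797 CPM, in ear skin 338, 257 and 309 CPM, and in VAT 316, 237, 349 and 172 CPM. Every library of these tissues lay above every spleen library, and every lung and liver library above every library of ear skin and VAT. The log2 fold changes against spleen were 5.01 ± 0.33 in lung, 5.37 ± 0.33 in liver, 3.59 ± 0.31 in ear skin and 3.43 ± 0.30 in VAT (edgeR adjusted p from 1.33e-13 to 1.8e-10). In the DT-labelled arm they were 4.90 ± 0.32, 5.34 ± 0.33, 2.94 ± 0.30 and 2.78 ± 0.29. Crem overlaps the transcript Gm6225 on the opposite strand, whose reads cannot be told apart here.

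Genes that answer quickly to stimulation or handling moved with these tissues too. A list of 19 immediate early and heat shock genes, chosen after seeing the data, summed to 1465 to 1935 CPM in the spleen libraries and to 5770 to 27810 CPM in those of the other tissues. Of the 19, 12 were higher in PBS-labelled lung than in spleen, 15 in liver, 14 in ear skin and 18 in VAT, with median log2 fold changes of 2.31, 4.18, 3.34 and 4.25. Fos read 4.69 to 8.48 CPM in PBS-labelled spleen, 89.2 to 155 CPM in lung, 141 to 286 CPM in liver, 300 to 600 CPM in ear skin and 884 to 3220 CPM in VAT. Sik1 read 6.67 to 7.65 CPM in PBS-labelled spleen, 142 to 208 CPM in lung, 122 to 150 CPM in liver, 101 to 129 CPM in ear skin and 77.3 to 168 CPM in VAT. Per1 read 73.3 to 90.2 CPM in spleen, 253 to 429 CPM in lung, 448 to 578 CPM in liver, 374 to 469 CPM in ear skin and 214 to 393 CPM in VAT. Crem and this list were both low in spleen. Among the other tissues genes of the list differed in their order, with the highest library in VAT for Fos, in liver for Per1 and in lung for Sik1. Tissue and its digestion protocol cannot be told apart, and the part of handling in the tissue results was not tested.

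**Figure D3:**
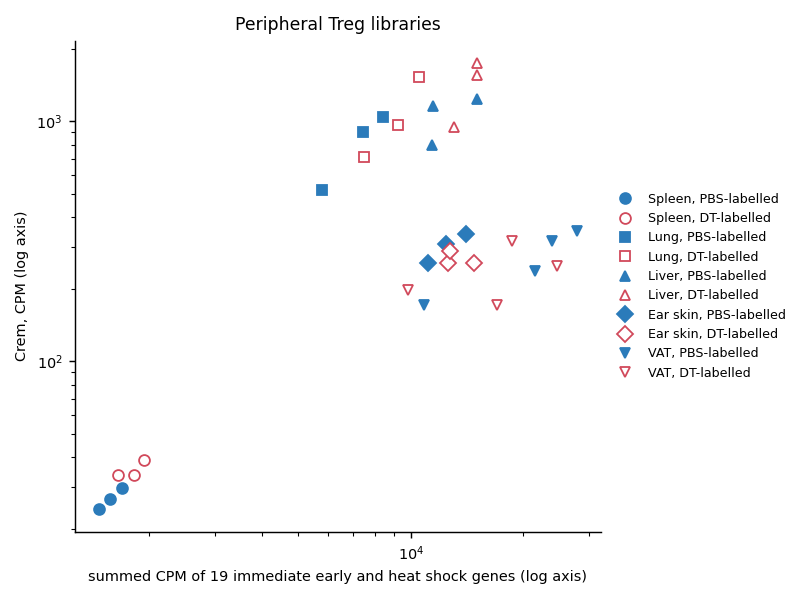
Crem level against the summed level of 19 immediate early and heat shock genes in the 32 peripheral libraries, both in CPM on log axes (filled, PBS-labelled; open, DT-labelled). Spleen libraries lie at the lower left, and lung and liver libraries lie above those of ear skin and VAT at similar or lower sums.

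The phosphodiesterases of the PDE4 family differed between tissues. Pde4d read 11, 8.82 and 10.4 CPM in PBS-labelled spleen and 89.2, 83.7 and 86.5 CPM in lung, far apart (log2 fold change 3.18 ± 0.32, edgeR adjusted p = 7.16e-09). It rose by 2.46 ± 0.32 in liver and by 1.89 ± 0.32 in ear skin, and by 3.02 ± 0.32, 2.92 ± 0.32 and 2.24 ± 0.32 in lung, liver and ear skin of the DT-labelled arm. In PBS-labelled VAT it read 36.7, 12.0, 21.2 and 14.4 CPM (1.17 ± 0.30, adjusted p = 0.00539). Without replicate 1, the highest, that difference was 0.71 (adjusted p = 0.0878), and in the compared libraries alone it was 1.13 (adjusted p = 0.102). In the DT-labelled arm the difference was 0.90 ± 0.31 (adjusted p = 0.0615), and DESeq2 called it (0.89, adjusted p = 0.0487). Pde4b rose in lung by 1.26 ± 0.28 and in liver by 1.14 ± 0.28 in the PBS-labelled arm, and by 1.40 ± 0.28 and 1.28 ± 0.28 in the DT-labelled arm. In PBS-labelled VAT it fell, from 155, 152 and 113 CPM in spleen to 100.4, 29.2, 44.4 and 72.9 CPM (-1.07 ± 0.26, adjusted p = 0.00322), although a fit of the compared libraries alone gave -1.10 with an adjusted p of 0.0673. In DT-labelled VAT it read 106, 58.0, 67.0 and 124 CPM against 108, 109.6 and 114 CPM in spleen (-0.26 ± 0.26, adjusted p = 0.665). In ear skin Pde4b rose in the DT-labelled arm (1.11 ± 0.28, adjusted p = 0.00395) and gave 0.46 ± 0.28 in the PBS-labelled arm (adjusted p = 0.235).

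Markers of dendritic cells moved with several of these tissues. The 6 markers summed to 16.1 to 38.1 CPM in PBS-labelled spleen, 61.1 to 88.9 CPM in lung, 51.0 to 53.9 CPM in liver, 49.3 to 72.8 CPM in ear skin and 10.1 to 24.6 CPM in VAT. The DT-labelled sums were 47.2 to 100.2 CPM in lung, 42.3 to 70.8 CPM in liver and 35.3 to 74.8 CPM in ear skin, against at most 18.1 CPM in spleen, and reached 49.9 CPM in VAT. Zbtb46 made up much of the sum, with 13.1 to 36.4 CPM in PBS-labelled spleen, 42.9 to 84.9 CPM in lung and 3.76 to 9.26 CPM in VAT. Against PBS-labelled spleen 2 of the 6, Itgax and Zbtb46, were higher in lung and 1, Xcr1, in each of liver, ear skin and VAT, where Zbtb46 was lower. In DT-labelled Treg Zbtb46 was higher in lung, liver and ear skin, and Xcr1 in liver and VAT. Flt3 and Clec9a, also dendritic cell markers, read at most 2.84 and 0.926 CPM in PBS-labelled lung and liver, and Clec9a was at 0 in every DT-labelled liver library. The part of such transcripts in the results for Pde4b, Pde4d, Adora2a and the other members was not tested.

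Pde3b was low in the periphery, at 0.347 to 10 CPM in all 32 libraries. It passed the test in lung (2.29 ± 0.70, edgeR adjusted p = 0.0237) and liver (2.44 ± 0.70, adjusted p = 0.0167) of the DT-labelled arm, against spleen libraries of 0.347, 1.80 and 0.798 CPM. Lung libraries had 2.62, 6.5 and 5.87 CPM and liver libraries 3.13, 10 and 3.09 CPM. The lung call was lost without spleen replicate 4 or 6 or lung replicate 5 or 6 (1.87 to 2.2, adjusted p = 0.0645 to 0.148). The liver call was lost without spleen replicate 4 or 6 or liver replicate 5 (1.65 to 2.33, adjusted p = 0.0761 to 0.213). In the PBS-labelled arm the differences were 0.64 ± 0.66 and 1.49 ± 0.66 (adjusted p = 0.587 and 0.122). In DT-labelled ear skin Pde3b gave 1.75 ± 0.72 (edgeR adjusted p = 0.0756), and DESeq2 called it (1.94, adjusted p = 0.0458).

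Gpr83 fell in every tissue against spleen. In the PBS-labelled arm it read 424, 252 and 229 CPM in spleen, 55.9, 55.6 and 51.6 CPM in lung, 50.7, 21.4 and 21.0 CPM in liver, 0, 5.57 and 2.14 CPM in ear skin, and 37.2, 8.20, 22.2 and 54.9 CPM in VAT. No tissue library reached a spleen library. The log2 fold changes were -2.38 ± 0.46 in lung, -3.19 ± 0.48 in liver, -6.79 ± 0.62 in ear skin and -3.16 ± 0.42 in VAT (edgeR adjusted p from 3.81e-10 to 0.000293). In the DT-labelled arm they were -2.17 ± 0.45, -4.20 ± 0.50, -4.91 ± 0.54 and -4.12 ± 0.45. The fold in ear skin rests on a few counts, so its size is uncertain.

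Adora2a, the adenosine receptor gene, rose in lung and liver of both arms. It read 81.7, 72.7 and 73.9 CPM in PBS-labelled spleen, 183, 138 and 184 CPM in lung and 202, 292 and 197 CPM in liver, without overlap (log2 fold change 1.23 ± 0.20 in lung and 1.66 ± 0.20 in liver, edgeR adjusted p = 2.97e-05 and 1.92e-07). In the DT-labelled arm it rose by 1.49 ± 0.20 in lung and 2.11 ± 0.20 in liver. In ear skin the differences were smaller, 0.62 ± 0.20 in the PBS-labelled and 0.59 ± 0.20 in the DT-labelled arm (adjusted p = 0.0225 and 0.0324). Both ear skin calls were lost without a filter on low counts (adjusted p = 0.199 and 0.175). The PBS-labelled one was also lost without any spleen library or ear skin replicate 1 or 3 (0.47 to 0.60, adjusted p = 0.0576 to 0.144). It was lost in the compared libraries alone too (0.66, 0.0648). The DT-labelled one was lost without any ear skin library or spleen replicate 4 or 6 (0.39 to 0.62, adjusted p = 0.0607 to 0.230). In VAT the difference was 0.66 ± 0.19 in the DT-labelled arm (adjusted p = 0.0210), lost without spleen replicate 4 or 6 or VAT replicate 6 or 7 (0.49 to 0.60, adjusted p = 0.0708 to 0.210) and without a filter (0.64, 0.0765). In the PBS-labelled arm it was 0.37 ± 0.19 (adjusted p = 0.200). Ptger4 passed the edgeR test in PBS-labelled ear skin and in no other of the 8 comparisons with spleen, moving from 112, 78.2 and 98.1 CPM to 169, 109.6 and 134 CPM, which overlap (0.63 ± 0.20, adjusted p = 0.0210). That call was lost without spleen replicate 2 or ear skin replicate 1 or 3 (0.44 to 0.62, adjusted p = 0.0555 to 0.170). Without a filter on low counts (0.50, 0.203) and in the compared libraries alone (0.67, 0.0697) it was lost too. In DT-labelled ear skin Ptger4 was called with DESeq2 and RLE scaling (0.57 with either) and in the compared libraries alone (0.53). The edgeR fit did not call it there (0.42 ± 0.20, adjusted p = 0.131).

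Of the ectoenzyme genes, Nt5e passed as lower in ear skin and VAT of both arms, and Entpd1 in PBS-labelled ear skin only. Nt5e fell in PBS-labelled ear skin from 255, 351 and 257 CPM in spleen to 138, 97.8 and 128 CPM, and in VAT to 95.6, 62.3, 98.9 and 152 CPM, with no overlap in either. The log2 fold changes were -1.15 ± 0.26 and -1.39 ± 0.24 (edgeR adjusted p = 0.00116 and 5.88e-05), and -1.28 ± 0.26 and -1.39 ± 0.24 in the DT-labelled arm (adjusted p = 0.000454 and 0.0001), and all 4 calls held in every setting. In lung and liver Nt5e did not pass the test in either arm (0.24 to 0.61, adjusted p = 0.106 to 0.605). Entpd1 fell in PBS-labelled ear skin, from 125, 103 and 102 CPM in spleen to 52.9, 60.7 and 81.5 CPM (-0.65 ± 0.23, adjusted p = 0.0394). That call was lost with RLE scaling (-0.56, 0.0786), with DESeq2 (-0.56, 0.0732) and in the compared libraries alone (-0.60, 0.105). It was also lost without ear skin replicate 1 or 2 or spleen replicate 1 or 2 (-0.54 to -0.68, adjusted p = 0.0634 to 0.151). In DT-labelled ear skin the value was 0.31 ± 0.23 (adjusted p = 0.326). Entpd1 rose in DT-labelled liver, from 127, 120 and 108 CPM in spleen to 206, 143 and 245 CPM (0.74 ± 0.23, adjusted p = 0.0249), a call lost without any spleen library or liver replicate 4 or 6 (0.57 to 0.80, adjusted p = 0.0516 to 0.146). In VAT it gave 0.36 ± 0.21 and 0.45 ± 0.21 in the PBS- and DT-labelled arms (adjusted p = 0.287 and 0.236). A fit of the compared libraries alone called Entpd1 in DT-labelled VAT (0.45, edgeR adjusted p = 0.0268).

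**Figure D4:**
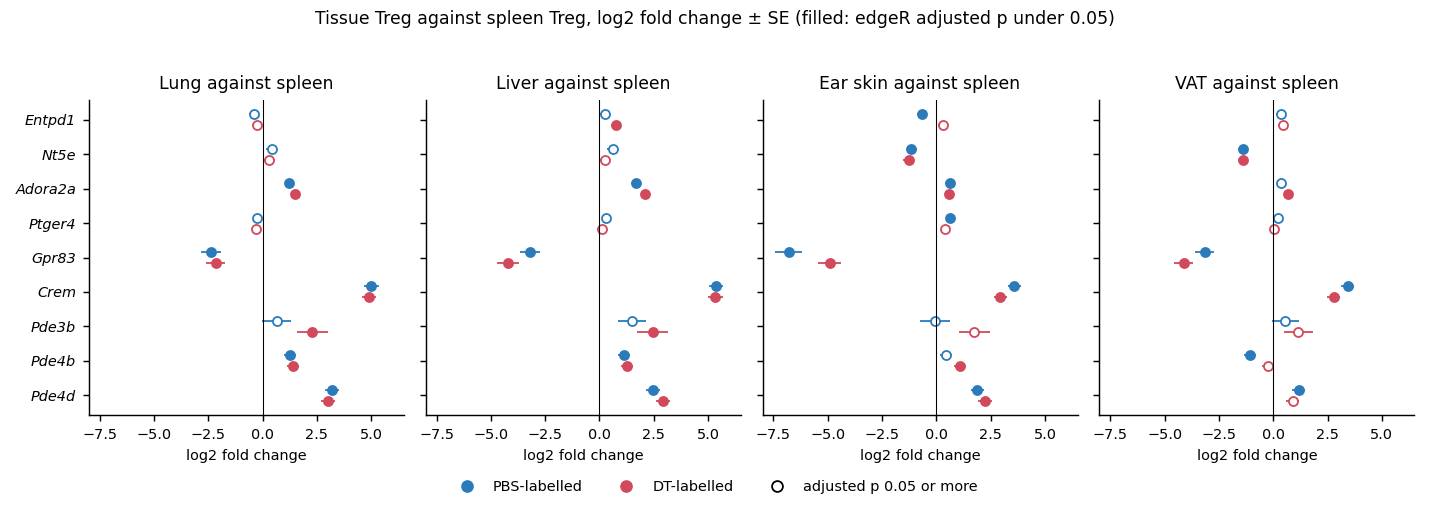
Log2 fold change ± SE of each member in lung, liver, ear skin and VAT Treg against spleen Treg, in the PBS-labelled (blue) and DT-labelled (red) arms; filled points have an edgeR adjusted p under 0.05. Crem lies to the right and Gpr83 to the left in all 4 panels, and Nt5e lies to the left in ear skin and VAT.

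VAT and ear skin Treg of the PBS-labelled arm were also compared directly, and 3 members passed the edgeR test (13.8% of all genes). Gpr83 was higher in VAT, by 3.63 ± 0.59 on the log2 scale (adjusted p = 5.79e-05), with 8.20 to 54.9 CPM against 0 to 5.57 CPM. Entpd1 was higher in VAT as well, with 183, 99.5, 112 and 128 CPM against 52.9, 60.7 and 81.5 CPM (1.01 ± 0.22, adjusted p = 0.00191). Pde4b was lower in VAT, with 100.4, 29.2, 44.4 and 72.9 CPM against 178, 163 and 197 CPM (-1.53 ± 0.26, adjusted p = 9.55e-05). The libraries of the pair did not overlap for any of these. RLE scaling and DESeq2 each added Pde4d (-0.83 with either) and Ptger4 (-0.53 with either) as lower in VAT, with adjusted p from 0.0281 to 0.0493, so the count was 5 with those settings. Nt5e, Crem and Adora2a gave -0.23 ± 0.24, -0.16 ± 0.25 and -0.24 ± 0.18.

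DT- and PBS-labelled Treg were compared within each tissue. Of the members tested (9, and 8 in spleen, where Pde3b did not pass the count filter), 1 passed the edgeR test in ear skin (0.411% of all genes) and none in spleen (0%), lung (0%), liver (0%) or VAT (0.124%). At an unadjusted p under 0.05 there were 1 in spleen, 0 in lung, 2 in liver, 4 in ear skin and 1 in VAT. Of all genes tested, 358 of 12453 in spleen, 412 of 12046 in lung and 525 of 11962 in liver were under it. In ear skin 1164 of 12653 were, and in VAT 955 of 12067. DESeq2 called no member in spleen, lung, liver or VAT. The member called in ear skin was Entpd1, with 52.9, 60.7 and 81.5 CPM in PBS-labelled and 148, 180 and 107 CPM in DT-labelled libraries, without overlap (log2 fold change 1.17 ± 0.21, adjusted p = 0.0164). DESeq2 and RLE scaling kept that call. It was lost without PBS-labelled replicate 1 or 2 or DT-labelled replicate 4 or 5 (0.96 to 1.16, adjusted p = 0.0706 to 0.133). Entpd1 gave 0.18 ± 0.18 in spleen, 0.33 ± 0.19 in lung, 0.67 ± 0.24 in liver and 0.29 ± 0.17 in VAT, none past the threshold. The DT effect in ear skin minus that in spleen was 0.96 ± 0.32 (adjusted p = 0.599), so the effect was not shown to differ from that in spleen. The 8 macrophage and monocyte markers summed to 12.1 to 18.2 CPM in PBS-labelled and 19.4 to 22.7 CPM in DT-labelled ear skin, and the part of that in the Entpd1 result was not tested.

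Nt5e was higher on average in the DT-labelled arm of each tissue without passing the test in any. Its means were 288 ± 54.8 and 404 ± 37.4 CPM in spleen, 366 ± 102 and 506 ± 102 CPM in lung, 423 ± 11.1 and 475 ± 134 CPM in liver, 121 ± 21.0 and 164 ± 43.3 CPM in ear skin, and 102 ± 37.0 and 148 ± 16.7 CPM in VAT, PBS-labelled before DT-labelled (SD, n = 3, and 4 in VAT). Its libraries stood apart in spleen only (0.54 ± 0.21, edgeR adjusted p = 0.933). Gpr83 in ear skin read 0, 5.57 and 2.14 CPM in the PBS-labelled and 14.9, 8.84 and 7.26 CPM in the DT-labelled arm (2.00 ± 0.77, adjusted p = 0.368), and in liver 50.7, 21.4 and 21.0 CPM against 19.3, 17.3 and 13.4 CPM (-0.89 ± 0.35, adjusted p = 0.999). Neither passed, although no library overlapped. The test of the DT effect in VAT minus that in spleen gave no edgeR call among the 9 members (0.0169% of all genes). Pde4b alone had an unadjusted p under 0.05 there, beside 1160 of all 17731 genes. The test in ear skin minus spleen gave no edgeR call among them either (0.0451%). Entpd1 and Gpr83 had an unadjusted p under 0.05 there, beside 1127 of all 17731 genes. DESeq2 called no member in either test, and without a filter on low counts Gpr83 was called in ear skin minus spleen (1.93, adjusted p = 0.00536).

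**Figure D5:**
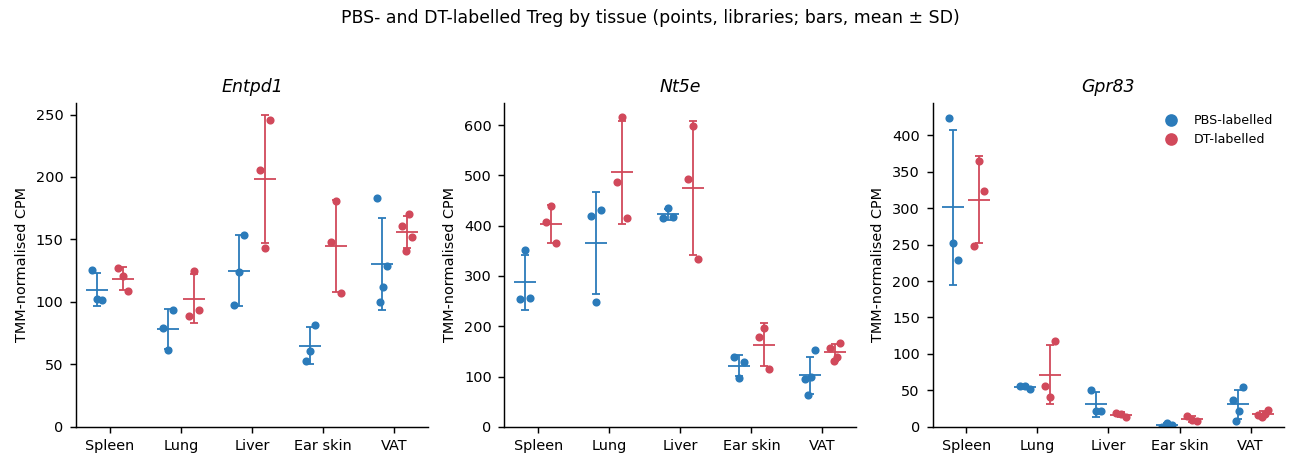
Levels of Entpd1, Nt5e and Gpr83 in CPM in PBS-labelled (blue) and DT-labelled (red) Treg of 5 tissues; points are libraries and bars the mean ± SD. The Entpd1 libraries of ear skin stand apart, at 52.9 to 81.5 CPM and 107 to 180 CPM.

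The rest of the pathway was read from a list of 88 further genes, of which 71 were tested in the thymus and 80 in the tissue comparisons. In P2 against P1, 15 were higher and 6 lower at day 5, where 15.2% of all genes passed. The counts were 20 and 16 at day 12 (41.4% of all genes), and 14 and 10 at day 49 (29.5%). S1pr1, the sphingosine 1-phosphate receptor that lets thymocytes leave the thymus, was higher in P2 at all 3 ages, by 2.11 ± 0.10, 2.24 ± 0.10 and 2.27 ± 0.10 on the log2 scale, with 885 ± 31.9 CPM in day 5 P2 and 208 ± 13.1 CPM in day 5 P1. Pde4a, another phosphodiesterase of the PDE4 family, was lower in P2 at each age, by -1.76 ± 0.26, -1.44 ± 0.25 and -1.59 ± 0.26, where Pde4b was higher. The acid-sensing receptor gene Gpr65 was lower in P2 at day 5 (-0.70 ± 0.14) and day 49 (-1.18 ± 0.14). Between day 5 and day 49, 7 rose and 2 fell in P1 (10.6% of all genes passed), and 13 rose and 6 fell in P2 (25.8%). Ptger2, whose product EP2 is a further prostaglandin E2 receptor that raises cyclic AMP, rose in P1 (1.12 ± 0.28, and 0.88 and 0.96 with adjusted p = 0.0818 and 0.0753 without day 5 replicates 2 and 3) and in P2 (1.5 ± 0.28). P2rx7, the ATP-gated channel, fell in P1 from 91.1 ± 12.9 to 46.8 ± 5.24 CPM (-0.94 ± 0.20) and in P2 from 129 ± 6.95 to 23.6 ± 7.53 CPM (-2.45 ± 0.21). Between day 5 and day 12, 8 rose and 7 fell in P1 (18.3% of all genes passed). In P2 Ptger2 rose (1.09 ± 0.28) and Entpd5 fell (-0.59 ± 0.15), where 5.16% of all genes passed. Ptger2 there was lost without day 5 replicate 1 or 2 or day 12 replicate 2 or 3 (adjusted p = 0.0630 to 0.118). Entpd5 was lost without any day 5 library or day 12 replicate 2 or 3 (0.0899 to 0.208), and without a filter on low counts (0.105).

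In the tissues of the PBS-labelled arm, 10 of the 80 further genes were higher and 5 lower than in spleen in lung. The counts were 8 and 5 in liver, 9 and 15 in ear skin, and 10 and 9 in VAT. Of all genes tested, 15.9% passed in lung, 17.0% in liver, 23.7% in ear skin and 14.9% in VAT. In the DT-labelled arm the counts were 14 and 10, 10 and 6, 13 and 12, and 5 and 4. The shares of all genes there were 14.6%, 13.3%, 22.1% and 8.85%. The list was not tested as a set. P2rx7 fell in ear skin from 184 ± 88.1 to 4.04 ± 2.15 CPM in the PBS-labelled arm (log2 fold change -5.44 ± 0.43) and by -7.02 ± 0.48 in the DT-labelled arm, and in lung by -1.99 ± 0.34 and -1.85 ± 0.33. Dpp4, which encodes CD26, fell in ear skin (-3.88 ± 0.52 and -3.61 ± 0.51) and VAT (-2.88 ± 0.43 and -1.67 ± 0.41) of the PBS- and DT-labelled arms. Adk, the kinase that turns adenosine into AMP, fell in ear skin (-1.45 ± 0.22 and -1.86 ± 0.23). Ptger2 fell in VAT (-1.36 ± 0.29 and -1.17 ± 0.29), where Ptgir, the prostacyclin receptor, rose (1.65 ± 0.39 and 2.31 ± 0.39). Rapgef3, the cyclic AMP-activated exchange factor Epac1, rose in ear skin from 0.113 ± 0.196 to 18.7 ± 3.02 CPM in the PBS-labelled arm (6.98 ± 0.89, from near 0, so of uncertain size) and by 4.29 ± 0.70 in the DT-labelled arm. P2ry14, a receptor for UDP-sugars, rose in lung (2.14 ± 0.41 and 2.34 ± 0.42) and ear skin (2.26 ± 0.41 and 2.47 ± 0.42). Prkar1a, a regulatory subunit of protein kinase A, rose in liver (0.52 ± 0.12 and 0.75 ± 0.12). The call in the PBS-labelled arm was lost without PBS-labelled liver replicate 2 (0.43, adjusted p = 0.0581). It was also lost without a filter on low counts (0.49, 0.0702) and in the compared libraries alone (0.55, 0.0714). In VAT against ear skin 13 were higher and 3 lower (13.8% of all genes passed), among them P2rx7 (4.32 ± 0.41) and Cd38 (3.40 ± 0.53) as higher. None of the 59 to 68 further genes tested in a tissue passed in DT against PBS, where 0% to 0.411% of all genes did.

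The genes whose group means followed each member most closely were sought among 9902 genes by Pearson correlation of log2 CPM over the 16 groups, which share strains, ages and sorts between them. The nearest were Dcxr, Pkp3 and Casp1 for Entpd1 (r = 0.99, 0.98 and 0.98), Arid5b, Tapbpl and Zc3h12d for Nt5e (0.98, 0.97 and 0.96), and Atg16l2, Abcb1a and Rilpl2 for Adora2a (0.97 each). For Crem they were Spty2d1, Samsn1 and Dgat1 (0.98 each), and for Gpr83 Aldh4a1, Dph5 and Gata1 (0.95 each). Among the nearest to Pde3b were Tubb3 and Fam163b (0.95 and 0.94), and among the nearest to Pde4b were Btg1 and Zbtb46 (0.92 each). Pde4d was nearest to Nmrk1, Zfand2b and Map1lc3a (0.91, 0.89 and 0.89), and Ptger4 to Nek6, Rce1 and Slc25a1 (0.87, 0.83 and 0.83). Among the members themselves Entpd1 ran with Adora2a (r = 0.90) and Nt5e (0.90) and against Pde3b (-0.85) over the 16 groups. Ptger4 followed no other member at an r above 0.23. These correlations are a description.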

How the data were processed

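RNA-seq was measured in 50 libraries of sorted mouse T cells. The authors deposited raw read counts per gene symbol, and STAR 2.7.3a, featureCounts and mm10 are named in the submitters' processing notes. Which annotation and strand setting were used, and how multimapping reads were treated, is not given in the sources used here. The extraction text in the labels describes muscle stem cells and was not relied on. Totals were 2521078 to 6981037 counts per library, and low values have few counts behind them.

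Groups came from the labels. Counts were tested with edgeR 4.0.16 in R 4.3.3 (TMM, filterByExpr with min.count 10 and min.total.count 15, quasi-likelihood F test, Benjamini-Hochberg over all genes tested, threshold 0.05). One fit held the 18 thymus libraries and another the 32 peripheral libraries, and each tissue had a fit of its own for DT against PBS. SEs are the log2 fold change divided by the square root of F. All 9 members are named, and up to 4 further pathway genes per direction and comparison, by adjusted p, with a group mean of at least 5 CPM, of which some are printed. The members and lists were chosen with earlier results of these data known.

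Alternatives were RLE scaling, no filter on low counts, DESeq2 1.42.0, the compared libraries alone, 1 fit of all peripheral libraries for DT against PBS, a replicate block and leaving out each library. A pair was added after seeing the data: the fit less the day 12 P1 libraries, and day 49 P2 replicate 1 as the only library of its group. No pair of libraries of a group agreed within sampling noise (chi-square over its degrees of freedom, 3.61 to 66.5), so each counted as 1 sample. The fit was tested on simulated data. No comparison had every same-numbered correlation of deviations from the group mean above 0.1, so the numbers were not taken as pairs. In DT-labelled liver against spleen these correlations were 0.041 to 0.114, and those of differently numbered libraries -0.116 to 0.0327. Some of the genes most like a member in pattern are not reported here. Promoter sequences are from RefSeq on GRCm38.p6.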

Additional observations from a re-analysis of the deposited data

Results flagged for a closer look

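P2rx7 differed in its change from day 5 to day 49 between the progenitors, by a test of the difference itself. The P2 change minus the P1 change was -1.51 on the log2 scale (edgeR adjusted p = 0.0296). The adjusted p was 0.0513 to 0.0867 on leaving out day 49 P1 replicate 2 or 3, day 5 P1 replicate 2 or 3, or any day 5 P2 library. Enpp4 differed in its DT against PBS change between ear skin and spleen, with a difference of -3.58 (edgeR adjusted p = 0.0427). That call was lost without any ear skin library, any DT-labelled spleen library or PBS-labelled spleen replicate 1 (adjusted p = 0.0593 to 0.383).

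Other results were singled out because the groups compared did not overlap and the fold changes had opposite signs between ages, progenitors or tissues. The difference was not tested in any of these. Adora2a in P2 against P1 was 0.98 at day 12 and -1.12 at day 49. Adora2a between day 5 and day 12 was 1.04 in P2 and -0.46 in P1, neither past the threshold. Nt5e over the same ages was 0.82 in P2 and -0.78 in P1, neither past the threshold. Gpr83 in DT against PBS was 2.00 in ear skin and -0.89 in liver, neither past the threshold. In the groups of VAT, 18 pairs of member and group were checked for a library far from the others, and none was found.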

How the results depend on the processing

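Of 75 calls of a member in a comparison, 50 kept call and direction in every setting, 25 lost the call in at least 1, and 0 reversed. The counts of called members moved by over 1.5 times as follows, and the cause was not tested unless fewer libraries entered. With DESeq2, P1 day 12 against day 5 had 1, P2 day 12 against day 5 had 3, the P2 minus P1 age difference had 1 and VAT against ear skin had 5, as with RLE scaling (5). Without a filter, P1 and P2 day 12 against day 5 had 1 each, P2 day 49 against day 5 had 1, and DT against PBS in ear skin minus spleen had 1. In the compared libraries alone, P1 day 12 against day 5 had 1, P2 day 12 against day 5 had 3, P2 day 49 against day 5 had 2, PBS-labelled ear skin against spleen had 4 and VAT against spleen had 3. Leaving out 1 library gave 4 to 6 for P2 against P1 at day 12, 0 to 1 for the P2 minus P1 age difference, 1 to 2 for P1 and 0 to 4 for P2 day 49 against day 5, 4 to 6 for PBS-labelled ear skin against spleen, and 0 to 1 for DT against PBS in ear skin. The replicate block moved 1 of 17 counts, P1 day 49 against day 5, to 1, and no comparison had every same-numbered correlation above 0.1 (0.041 to 0.114 in DT-labelled liver against spleen). With that block the call was lost for Adora2a in DT-labelled VAT against spleen (adjusted p = 0.123), Crem (0.0768) and Entpd1 (0.0612) in P2 against P1 at day 12, and Entpd1 (0.0614) and Nt5e (0.0608) in P1 between day 5 and day 49. Among the settings chosen after seeing the data, the fit less the day 12 P1 libraries gave 1 for P2 day 12 against day 5. With day 49 P2 replicate 1 as the only library of its group, P2 day 49 against day 5 gave 0, and Pde1c there, a further pathway gene, reversed to -0.94. Depth limits Entpd1 in the thymus, Pde3b in the periphery and Gpr83 in ear skin, which rest on few counts.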
